A study of Mus musculus with 16 samples.

Results

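Acyl-CoA thioesterases and uncoupling proteins were followed in mouse skeletal muscle after high-fat feeding and after a single bout of exercise. The 8 genes, 6 thioesterases (Acot1, Acot2, Acot7, Acot9, Acot11 and Acot13) and 2 uncoupling proteins (Ucp2 and Ucp3), were the rows of the deposited expression table that carry these symbols. They are 8 of 23970 symbols, and all 8 were among the 11256 genes expressed highly enough to be tested. Because Acot1 and Acot2 are near-identical copies, their sum was treated as a further value.

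The samples were quadriceps of male C57BL/6NTac mice aged 16 weeks, in 4 groups of 4 libraries. Mice had eaten a control diet (CON) or a high-fat diet (HFD), and muscle was taken either in the basal state (pre) or 3 h after a maximal treadmill test (post), which gives CON-pre and CON-post on the control diet and HFD-pre and HFD-post on the high-fat diet. No genetic alteration or drug separated the groups. All 4 groups had been acclimatised to the treadmill and fasted before the test or the basal collection, and the exercised mice had water but no food afterwards. The paper gives the basal groups an equal fasting period, without saying whether it covered those hours after the test. If it did not, exercise and longer time without food cannot be told apart in post against pre. The labels number the libraries 1 to 4 in each group but do not say whether each came from a different mouse, so the p-values measure the spread between these samples. Whole muscle was sequenced, and in such bulk samples fewer cells of a type and less RNA per cell cannot be told apart.

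Acyl-CoA thioesterases split fatty acyl-CoA into free fatty acid and coenzyme A. They oppose the acyl-CoA synthetases, which activate fatty acids before they are oxidised or stored, and in mitochondria they can release coenzyme A when fatty acid supply is high. Uncoupling proteins are carriers of the inner mitochondrial membrane. Ucp3 is the form typical of skeletal muscle, where its transcript is known to rise with fasting and fatty acids, and Ucp2 is found in many tissues, including macrophages. Acot1, Acot2 and Ucp3 are textbook target genes of the PPARs (peroxisome proliferator-activated receptors), nuclear receptors that sense fatty acids.

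Levels are given in FPKM (fragments counted per kilobase of transcript and scaled to the mapped fragments of each library), a scale that corrects for gene length. The 16 libraries resembled one another, with the median correlation of a library with the others between 0.974 and 0.978. Library depth was 6.50 to 10.2 M fragments, as estimated from genes seen in few libraries and lower than the number of reads the study's methods state, and the 10 most abundant genes took 29.2% to 36.5% of all FPKM. The skeletal muscle markers were the dominant set (10 genes, among them Acta1 and Ckm, summing to 63598 to 89450 FPKM), and none of them was at 0. This sum was lower in every HFD-pre library (71621 to 78099 FPKM) than in every CON-pre library (81175 to 89450 FPKM), and it ran from 71995 to 82666 in CON-post and from 63598 to 77115 in HFD-post. All 8 slow-fibre markers tested were lower with HFD before exercise (median log2 difference -0.54) and after it (-0.31), and all 8 were higher in HFD-post than in HFD-pre (0.26), with none called by limma. Among 9 adipocyte markers, Lep rose with HFD before exercise by 2.34 (limma adjusted p = 0.0138) and after it by 2.74 (0.00893), and Cfd fell by 1.97 (0.00440) and by 1.58 (0.0253). With exercise, the endothelial marker Pecam1 rose in HFD mice by 0.39 (limma adjusted p = 0.0347), and 1 other of the 6 endothelial markers was higher there. In the same comparison 8 of the 9 adipocyte markers were higher (median 0.41) and 4 of 5 blood markers (median 0.50), with none of these called by limma. For the interaction, 9 of 9 adipocyte markers were positive (median 0.41) and 4 of 5 blood markers (median 0.77), none called. Of the diet comparisons, HFD-pre against CON-pre had 6 of 6 endothelial markers higher (median 0.15) and 4 of 5 blood markers lower (median -0.47), and HFD-post against CON-post had 5 of 5 blood markers higher (median 0.37), none called. The part of these shifts in the results was not tested. Scaling the libraries in other ways moved the median of all genes by at most 0.0422 on the log2 scale, in either direction.

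The first sequence is shown because it is the longest coding stretch in which reads of Acot1 and Acot2 cannot be told apart. The 2 genes lie 15624 bases apart on chromosome 12 (build GRCm38.p6, RefSeq), Acot2 at chr12:83987861-83993877 and Acot1 at chr12:84009502-84017670, both on the plus strand. Their coding sequences (GENCODE M1) were identical at 95.5% of 1239 aligned bases. Of all runs of 50 bases in the Acot1 transcript, 34.9% also occurred in the Acot2 transcript, and 24.5% of the Acot2 runs occurred in Acot1. The longest stretch that both coding sequences share letter for letter covers 273 bases, bases 887 to 1159 of the Acot1 coding sequence and bases 1010 to 1282 of that of Acot2.
Acot1 and Acot2, shared coding stretch: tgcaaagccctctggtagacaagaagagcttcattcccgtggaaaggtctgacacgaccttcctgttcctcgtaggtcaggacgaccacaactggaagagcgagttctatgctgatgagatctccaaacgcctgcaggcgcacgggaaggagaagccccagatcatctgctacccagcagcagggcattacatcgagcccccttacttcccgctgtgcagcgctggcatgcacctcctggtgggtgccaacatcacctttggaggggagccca

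The promoters of the 3 members with the clearest differences are shown for their sequence upstream of the start, since these genes are known PPAR targets. Ucp3 lies at chr7:100472991-100486432 on the plus strand, 6904 bases upstream of Ucp2 (chr7:100493337-100499629, plus strand). The windows are the 250 bases before the RefSeq start (GRCm38.p6, plus strand), at chr7:100472741-100472990 for Ucp3, chr12:83987611-83987860 for Acot2 and chr12:84009252-84009501 for Acot1. Capitals mark copies of AGGTCA and the DR1 arrangement described next.
Ucp3: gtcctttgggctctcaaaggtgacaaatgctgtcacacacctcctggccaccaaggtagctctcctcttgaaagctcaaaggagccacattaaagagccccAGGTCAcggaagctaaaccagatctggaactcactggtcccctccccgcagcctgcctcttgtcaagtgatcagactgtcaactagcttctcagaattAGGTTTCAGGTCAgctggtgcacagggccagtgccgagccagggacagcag
Acot2: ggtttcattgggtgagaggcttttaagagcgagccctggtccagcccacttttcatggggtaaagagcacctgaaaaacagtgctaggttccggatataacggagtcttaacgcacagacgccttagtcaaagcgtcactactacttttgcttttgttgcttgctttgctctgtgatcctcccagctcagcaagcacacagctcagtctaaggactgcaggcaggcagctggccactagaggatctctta
Acot1: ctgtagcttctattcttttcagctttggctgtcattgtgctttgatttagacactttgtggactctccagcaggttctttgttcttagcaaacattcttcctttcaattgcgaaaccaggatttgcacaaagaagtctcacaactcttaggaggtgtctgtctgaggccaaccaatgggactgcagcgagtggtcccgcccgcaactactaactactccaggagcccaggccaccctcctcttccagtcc

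Both strands were searched for AGGTCA, for DR1 (the PPAR element, 2 copies of AGGTCA in the same direction 1 base apart, with at most 2 mismatches) and for TCAAGGTCA (the element of the oestrogen-related receptors, which itself contains AGGTCA). The Ucp3 window held 2 copies of AGGTCA, at 149 to 144 and 44 to 39 bases before the start, and the nearer one formed the second copy of a DR1 with 2 mismatches at 51 to 39 bases before the start. Across all 32851 promoter windows of the same length, 14.0% held AGGTCA, 3.24% held such a DR1 and 0.387% held TCAAGGTCA. None of the 3 motifs was found in the Acot1 or Acot2 windows. Of the 8 members, 7 matched the promoter table with 8 windows in all, and only the Ucp3 window held AGGTCA or a DR1. A match is a description of letters, not of binding.

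Acot2 encodes a thioesterase of the mitochondrial matrix. Its level was 1.89, 1.99, 2.77 and 3.40 FPKM in the 4 CON-pre libraries and 6.12, 4.96, 6.48 and 7.05 FPKM in the 4 HFD-pre libraries. After exercise it was 6.53, 7.97, 8.63 and 7.25 FPKM in CON-post and 9.54, 8.69, 9.43 and 7.03 FPKM in HFD-post. All 4 CON-pre libraries lay below every library of the other groups, while HFD-post overlapped both HFD-pre and CON-post because of its replicate 4.

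High-fat feeding raised Acot2 in basal muscle from 2.51 ± 0.712 to 6.15 ± 0.881 FPKM (mean ± SD, n = 4), a ratio of means of 2.45. On the scale of log2(FPKM + 0.5), which understates the change of low genes, the difference was 1.16 with a standard error of 0.15 (limma, Benjamini-Hochberg adjusted p = 0.00274). Acot2 was the only member that passed an adjusted p of 0.05 in this comparison, 1 of 8 members, where 0.346% of all genes tested passed. It was also the only one of the 8 whose HFD-pre and CON-pre libraries did not overlap, beside 5.62% of all genes.

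In CON mice, Acot2 rose after exercise to 7.60 ± 0.908 FPKM, 3.02 times the CON-pre mean. The log2 difference was 1.45 (SE 0.15, limma adjusted p = 6.77e-05). In HFD mice the mean went from 6.15 to 8.67 ± 1.16 FPKM, a ratio of 1.41 and a log2 difference of 0.46 (95% interval 0.14 to 0.79) that did not pass adjustment (limma adjusted p = 0.236). After exercise, the 2 diets differed by 0.18 on the log2 scale (interval -0.14 to 0.50, limma adjusted p = 0.960). This Acot2 difference ran from 0.11 without CON-post replicate 1 to 0.27 without HFD-post replicate 4.

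The exercise difference of Acot2 was smaller in HFD than in CON mice by estimate (interaction -0.98 on the log2 scale, SE 0.22, interval -1.44 to -0.53). This interaction had an unadjusted limma p of 3.06e-04 and an adjusted p of 0.926. No gene of the 11256 passed for the interaction (0% called, with 356 genes at an unadjusted p under 0.05 in limma). The comparisons share libraries: CON-pre is the control in both the diet and the exercise comparison, and a low CON-pre level enters each of them.

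Acot1, the cytosolic thioesterase, was the least abundant member in the basal groups. It stood at 0.356, 0.303, 1.00 and 0.608 FPKM in CON-pre and at 0.874, 0.937, 1.82 and 1.29 FPKM in HFD-pre. In CON-post its levels were 0.884, 0.898, 1.11 and 1.65 FPKM, and in HFD-post they were 2.49, 1.95, 2.87 and 1.98 FPKM. The HFD-post libraries lay above every other library, whereas the other 3 groups overlapped, with CON-pre replicate 3 reaching into the range of both other groups.

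No single pair of groups passed adjustment for Acot1. Its log2 differences were of like size in all 4 comparisons, 0.71 for HFD-pre against CON-pre (limma adjusted p = 0.272), 0.80 for HFD-post against CON-post (0.248), 0.64 for CON-post against CON-pre (0.219) and 0.73 for HFD-post against HFD-pre (0.175), each with a standard error of 0.21. The ratios of the mean FPKM were 2.17, 2.05, 2.00 and 1.89 in that order, and with a pseudocount of 0.1 in place of 0.5 the log2 differences of Acot1 were 1.06, 1.00, 0.96 and 0.90, none of which passed. Averaged over exercise states, Acot1 rose with HFD by 0.76 (SE 0.15, limma adjusted p = 0.0197), and averaged over diets it rose with exercise by 0.68 (limma adjusted p = 0.0180). The interaction was 0.09, with an interval from -0.55 to 0.73.

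The depth behind Acot1 was small, by the same rough estimate 3.07 to 14.3 fragments per CON-pre library and 22.8 to 36.6 per HFD-post library. The diet call did not survive the loss of CON-pre replicate 1 (limma adjusted p = 0.0525) or of CON-post replicate 2 (0.0516), while the exercise call passed under every alternative run.

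The sum of Acot1 and Acot2, which depends less on how reads were divided between the copies, was 2.24, 2.29, 3.77 and 4.01 FPKM in CON-pre and 6.99, 5.90, 8.30 and 8.34 FPKM in HFD-pre. It reached 7.42, 8.87, 9.74 and 8.89 FPKM in CON-post and 12.0, 10.6, 12.3 and 9.01 FPKM in HFD-post. Group means were 3.08 ± 0.942 FPKM in CON-pre and 7.38 ± 1.17 in HFD-pre, then 8.73 ± 0.965 in CON-post, and were highest in HFD-post at 11.0 ± 1.51 (SD, n = 4 each). Of neighbours in this order, CON-pre and HFD-pre did not overlap, while HFD-pre overlapped CON-post and CON-post overlapped HFD-post.

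The summed level rose with HFD in basal muscle by 1.16 on the log2 scale (SE 0.16, limma adjusted p = 0.00440) and with exercise in CON mice by 1.40 (limma adjusted p = 1.87e-04). HFD-post exceeded HFD-pre by 0.55 with no overlap of the libraries, without passing adjustment (limma adjusted p = 0.187), and HFD-post exceeded CON-post by 0.31 (0.871). The averaged differences were 0.74 for diet (0.00279) and 0.97 for exercise (1.21e-04), both limma adjusted p-values. For the interaction the sum gave -0.85 with an interval from -1.35 to -0.36, an unadjusted limma p of 0.00213 and an adjusted p of 1.00. Acot1 made up 13.2% to 26.5% of the sum in CON-pre, 12.5% to 21.9% in HFD-pre, 10.1% to 18.5% in CON-post and 18.4% to 23.3% in HFD-post, so Acot2 was the larger part in all 16 libraries. These shares depend directly on how shared reads were divided.

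**Figure D1:**
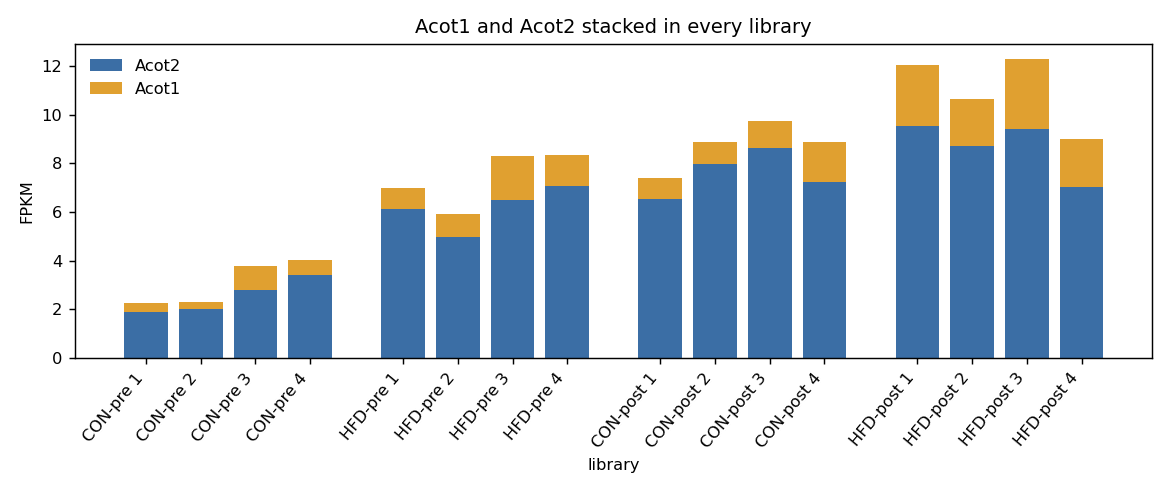
Stacked bars give the FPKM of Acot2 (blue) and Acot1 (orange) in each of the 16 libraries, in the order of the groups and their replicate numbers. The 4 CON-pre bars reach 2.24 to 4.01 FPKM and every other bar stands above them, up to 12.3 FPKM in HFD-post.

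Ucp3, the muscle uncoupling protein, was measured at 48.4, 68.1, 59.6 and 82.6 FPKM in CON-pre and at 67.3, 87.1, 104 and 82.1 FPKM in HFD-pre. Its CON-post levels were 121, 126, 96.8 and 126 FPKM, and its HFD-post levels were 107, 115, 110.3 and 80.2 FPKM. The CON-post libraries all lay above the CON-pre libraries, and the HFD-pre libraries spanned the gap between them. HFD-post overlapped HFD-pre and CON-post.

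In CON mice Ucp3 rose after exercise from 64.7 ± 14.4 to 117 ± 13.8 FPKM, a log2 difference of 0.87 (SE 0.16, limma adjusted p = 0.00878). Together with Acot2 it made 2 of 8 members called in CON-post against CON-pre, where 1.11% of all genes were called. Those 2 were also the members whose libraries did not overlap, beside 5.82% of all genes. In HFD mice the means were 85.1 ± 15.1 before and 103 ± 15.6 FPKM after exercise, a log2 difference of 0.28 with an interval from -0.06 to 0.62 (limma adjusted p = 0.528). Leaving out 1 library at a time, this Ucp3 difference lay between 0.17 (without HFD-pre replicate 1) and 0.40 (without HFD-post replicate 4).

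Between the diets the log2 difference of Ucp3 was 0.40 in basal muscle (interval 0.06 to 0.74, limma adjusted p = 0.488) and -0.19 after exercise (limma adjusted p = 0.960), and neither passed. Averaged over diets the exercise difference was 0.58 (SE 0.11, limma adjusted p = 0.00867), and averaged over exercise states the diet difference was 0.11 (0.823). The interaction was -0.59 with an interval from -1.07 to -0.11, an unadjusted limma p of 0.0191 and an adjusted p of 1.00. As with Acot2, the interval lies below 0 and the value fails adjustment.

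Ucp2, the broadly expressed uncoupling protein, was far lower than Ucp3. Its levels were 3.27, 2.07, 3.62 and 3.28 FPKM in CON-pre and 3.50, 3.49, 3.33 and 4.54 FPKM in HFD-pre. In CON-post they were 3.15, 5.27, 3.98 and 5.35 FPKM, and in HFD-post 3.79, 7.03, 4.36 and 4.70 FPKM. In each of the 4 pairs compared the groups overlapped. The highest level was in HFD-post replicate 2.

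No comparison of Ucp2 passed adjustment. Exercise differences were 0.47 in CON mice (interval 0.06 to 0.87, limma adjusted p = 0.359) and 0.35 in HFD mice (interval -0.05 to 0.76, limma adjusted p = 0.495), and their average was 0.41 (interval 0.12 to 0.69, limma adjusted p = 0.106). Diet differences were 0.26 before exercise (interval -0.15 to 0.66) and 0.14 after it (interval -0.26 to 0.54). Single libraries moved these Ucp2 differences. The exercise difference in HFD mice ran from 0.19 without HFD-post replicate 2 to 0.46 without HFD-post replicate 1, and the basal diet difference from 0.11 without CON-pre replicate 2 to 0.33 without CON-pre replicate 3. The diet difference averaged over exercise states was 0.20, and ran from 0.12 to 0.25 without the same 2 HFD-post libraries. The macrophage markers, 11 genes with none at 0 in every library of a group, summed to 117 to 201 FPKM in CON-pre, 107 to 141 in HFD-pre, 93.2 to 259 in CON-post and 84.0 to 181 in HFD-post. None of the 11 was called by limma in any comparison, and all 11 were lower for diet averaged over exercise states, with a median log2 difference of -0.26. Their part in the level of Ucp2 was not tested.

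Acot13 is a small thioesterase found with mitochondria, and it was the most abundant thioesterase of the set in every group. Its means were 84.5 ± 3.98 FPKM in CON-pre, 94.2 ± 6.42 in HFD-pre, 84.5 ± 6.29 in CON-post and 87.9 ± 10.6 in HFD-post. Over all 16 libraries its highest level was 1.41 times its lowest, the narrowest range of the 8 members. The largest of its pairwise differences, 0.15 for HFD-pre against CON-pre, had an interval from -0.03 to 0.33 (limma adjusted p = 0.679), and that for CON-post against CON-pre had an interval from -0.18 to 0.18. For HFD-post against HFD-pre the Acot13 difference was -0.11, and it ran from -0.16 to -0.0168 without HFD-post replicates 1 and 2 respectively.

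Acot7, a long-chain acyl-CoA thioesterase best known from brain, had means of 6.86 ± 0.976 FPKM in CON-pre, 8.33 ± 1.09 in HFD-pre, 8.03 ± 0.963 in CON-post and 8.13 ± 1.09 in HFD-post. CON-pre was the lowest group, with overlap of all groups. Its log2 difference for HFD-pre against CON-pre was 0.26 (interval 0.01 to 0.52, limma adjusted p = 0.589), and that for CON-post against CON-pre was 0.21 (interval -0.04 to 0.47, limma adjusted p = 0.542).

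Acot9, a mitochondrial thioesterase, averaged 4.88 ± 0.900, 4.88 ± 1.16, 6.11 ± 1.60 and 5.87 ± 1.19 FPKM in CON-pre, in HFD-pre, in CON-post and then in HFD-post. Its diet differences were near 0 (-0.01 before and -0.04 after exercise), with intervals from -0.41 to 0.39 and from -0.45 to 0.36. Exercise differences were 0.28 in CON and 0.25 in HFD mice, neither of which passed (limma adjusted p = 0.634 and 0.651). They ran from 0.13 (without CON-post replicate 2) to 0.39 (without CON-post replicate 4) in CON mice, and from 0.10 (without HFD-pre replicate 2) to 0.37 (without HFD-post replicate 1) in HFD mice. The Acot9 coding sequence was identical to that of Acot10 at 97.2% of bases, and 20.2% of its 50-base runs occurred in Acot10, so its level is uncertain in the same way as that of Acot1. Acot10 itself averaged 1.96 to 2.57 FPKM per group.

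Acot11, a thioesterase with a lipid-binding domain best known from brown fat, was low, with means of 1.40 ± 0.391, 1.38 ± 0.135, 1.12 ± 0.284 and 1.54 ± 0.440 FPKM in the same order. Its largest pairwise difference was 0.32 for HFD-post against CON-post (interval -0.05 to 0.69, limma adjusted p = 0.897). Without HFD-post replicate 1 that difference was 0.20, and without HFD-post replicate 2 it was 0.47. The same 2 libraries moved the Acot11 diet difference averaged over exercise states (0.16) to 0.11 and 0.24, and its interaction (0.31) to 0.20 and 0.46. The exercise difference in CON mice was -0.22, and ran from -0.33 without CON-pre replicate 2 to -0.12 without CON-post replicate 2. The gene, at chr4:106744555-106805007 on the minus strand, overlaps Fam151a. Acot7 lies elsewhere on the same chromosome (chr4:152178100-152271855, plus strand), Acot9 at chrX:155262443-155297654 (plus strand) and Acot13 at chr13:24817955-24831489.

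**Figure D2:**
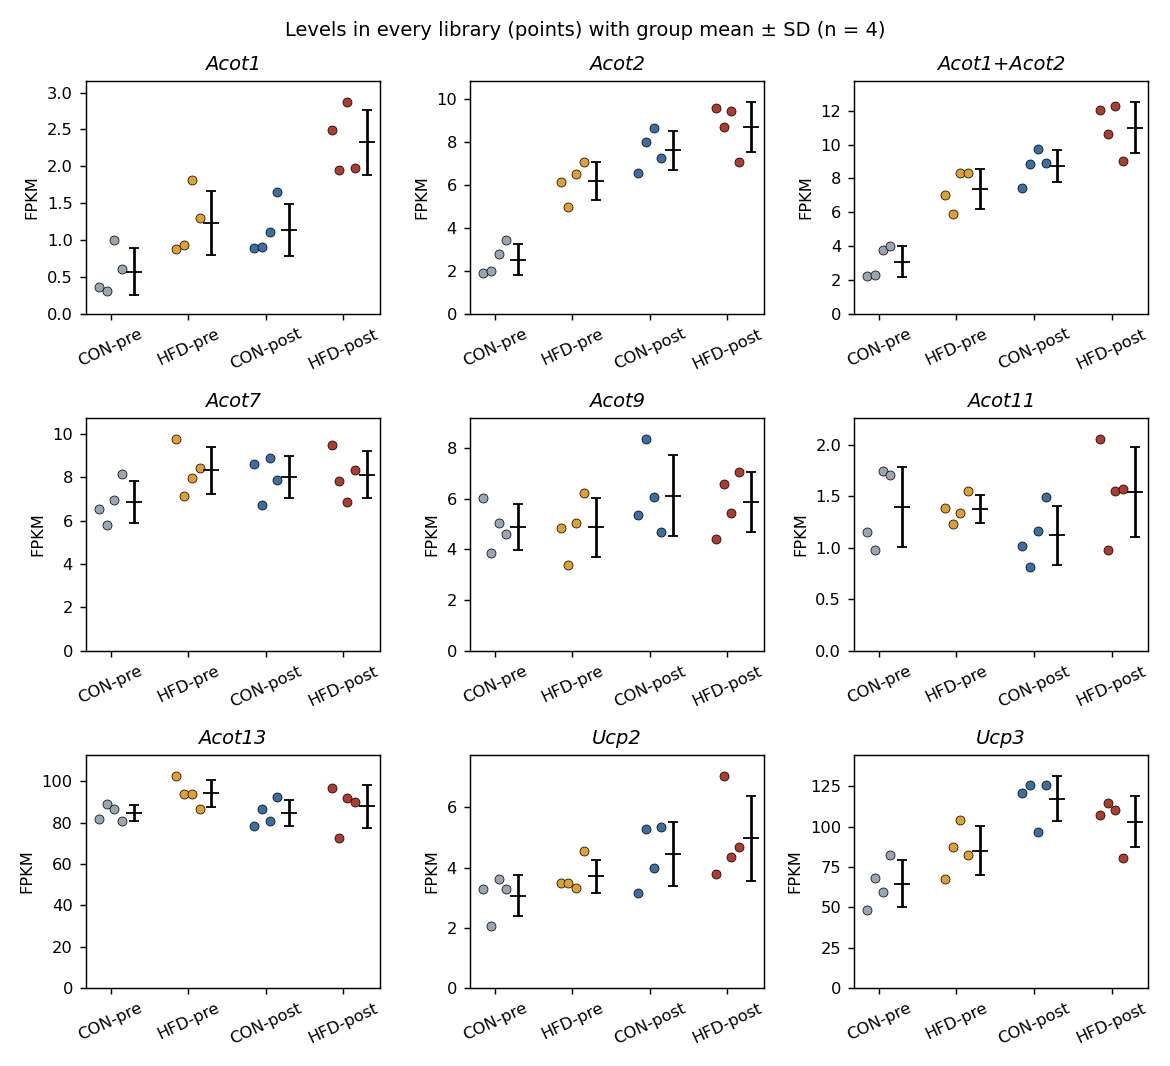
Each panel gives the FPKM of 1 member, or of the sum of Acot1 and Acot2, on an axis from 0, with a point per library and a bar for the group mean ± SD (n = 4). Acot2 and the sum are lowest in the 4 CON-pre libraries, Ucp3 in CON-post stands above CON-pre, and Acot13 varies by 1.41 times from lowest to highest.

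Because FPKM is corrected for length, levels can be ordered between genes. In CON-pre the order of the means was Acot13, Ucp3, Acot7, Acot9, Ucp2, Acot2, Acot11 and Acot1. The libraries of Acot13 and Ucp3 overlapped in CON-pre, as did those of Acot7 and Acot9, of Ucp2 and Acot2, and of Acot11 and Acot1, while the steps between these pairs were clear of overlap. Acot2 was the 6th member in CON-pre, the 4th in HFD-pre and in CON-post, and the 3rd in HFD-post, where its range (7.03 to 9.54 FPKM) overlapped that of Acot7 (6.86 to 9.48 FPKM).

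Ucp3 was second to Acot13 in both basal groups and first in both exercised groups. In CON-post every Ucp3 library (96.8 to 126 FPKM) was above every Acot13 library (78.3 to 92.5 FPKM), and in the other 3 groups the 2 genes overlapped. By mean level over 16 libraries, Ucp3 ranked 355th and Acot13 377th of the 11256 genes tested, whereas Acot11 ranked 9159th and Acot1 9242nd.

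**Figure D3:**
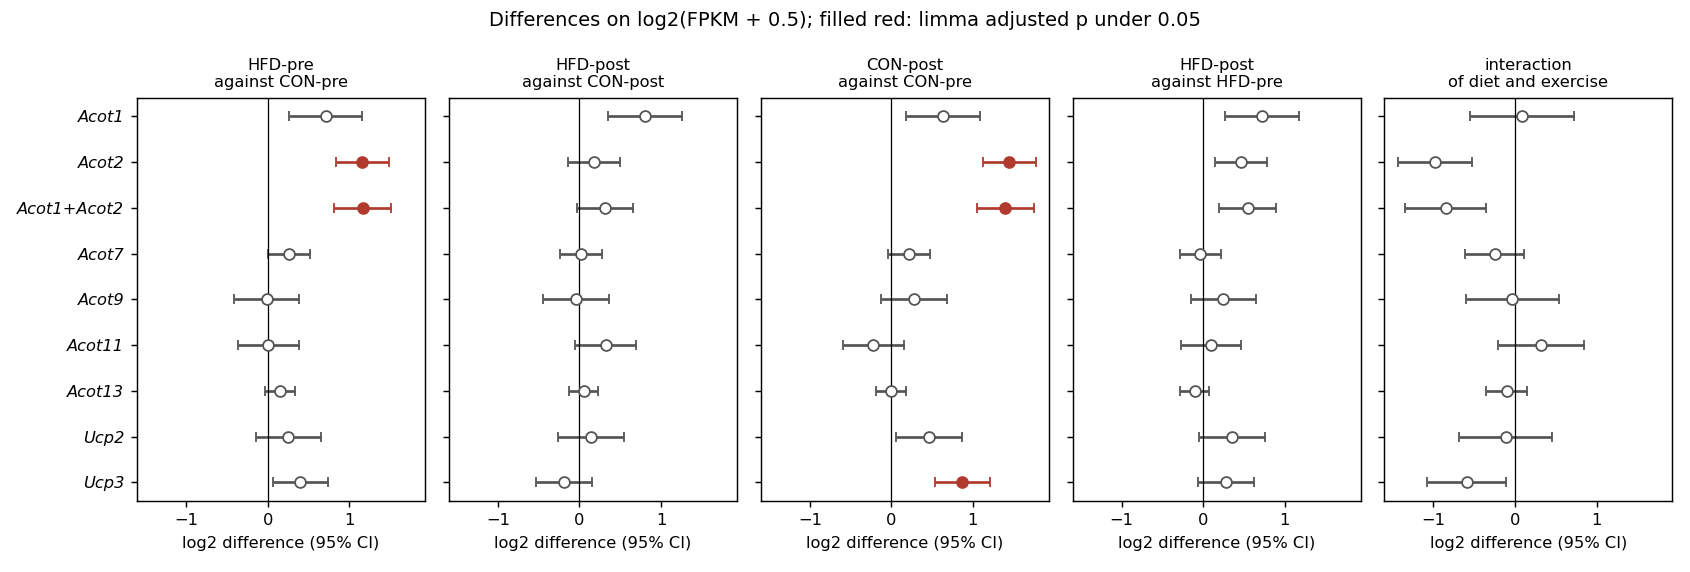
Points are log2 differences of log2(FPKM + 0.5) with 95% intervals, for 4 pairs of groups and for the interaction, and filled red points have a limma adjusted p under 0.05. Red points are seen for Acot2 and the sum in HFD-pre against CON-pre, and for Acot2, the sum and Ucp3 in CON-post against CON-pre.

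Counted over the 8 members, the basal diet difference was positive in 7, and its median was 0.26 on the log2 scale beside -0.03 over all genes tested. For HFD-post against CON-post, 6 of 8 were higher and none was called by limma, where 0.151% of all genes were called. At an unadjusted limma p under 0.05 there was 1 member, beside 708 of the 11256 genes. Acot1 was the 1 member whose libraries did not overlap there, beside 3.16% of all genes. For HFD-post against HFD-pre, 6 of 8 were higher and none was called by limma, where 0.542% of all genes were called. At an unadjusted limma p under 0.05 there were 2 members, beside 1320 of the 11256 genes. Acot1 was again the 1 member without overlap, beside 6.81% of all genes. At the same unadjusted threshold, HFD-pre against CON-pre had 4 members beside 929 genes. CON-post against CON-pre had 4 members beside 1253 genes.

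Exercise averaged over diets called 3 members, Acot1, Acot2 (log2 difference 0.96, limma adjusted p = 5.96e-05) and Ucp3, beside 3.86% of all genes. Diet averaged over exercise states called 2, Acot1 and Acot2 (0.67, SE 0.11, limma adjusted p = 0.00333), beside 0.959% of all genes. No member fell in any of the 7 comparisons by limma, and the lowest pairwise difference of a member was -0.22, for Acot11 in CON-post against CON-pre (interval -0.59 to 0.15).

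Of 18 other thioesterase genes listed, 9 were tested and none was called by limma in any comparison. Acot8, a peroxisomal thioesterase, averaged 2.52 FPKM in CON-pre and 1.90 FPKM in HFD-pre, with a log2 difference of -0.36 (interval -0.75 to 0.03, limma adjusted p = 0.643). Acot6 averaged 0.828 to 1.05 FPKM per group, and Acot4 averaged at most 0.0960 FPKM. Acot6 and Acot4 are neighbours of Acot1 and Acot2 in the same gene family.

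Among 12 other mitochondrial carriers tested, Slc25a20 and Slc25a34 rose. Slc25a20, which carries acylcarnitines into mitochondria, rose with HFD before exercise (log2 difference 0.63, limma adjusted p = 0.00440) and after it (0.55, 0.0216). Averaged over diets, Slc25a20 also rose with exercise by 0.26 (limma adjusted p = 0.0332). Slc25a34, an orphan carrier of the inner membrane, rose with HFD in basal muscle by 0.95 (limma adjusted p = 0.0257) and with exercise in CON mice by 0.79 (0.0397). Among the 4 pairs of groups these are also the 2 in which Acot2 rose, and averaged over the other factor Slc25a34 rose with diet (0.75, limma adjusted p = 0.00542) and with exercise (0.58, 0.0157), as Acot2 did. Ucp1, the brown fat uncoupling protein, was listed at 0 in 10 of the 16 libraries and reached at most 1.44 FPKM.

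The acyl-CoA synthetases, which run the opposite reaction, had no member called by limma in any pair of groups among 13 tested. Averaged over exercise states, Slc27a1 (a fatty acid transport protein with synthetase activity) rose with HFD by 0.41 (limma adjusted p = 0.0197) and Acsl1 (the main long-chain synthetase of muscle) by 0.32 (0.0157). Averaged over diets, Slc27a1 rose with exercise by 0.32 (limma adjusted p = 0.0394) and Acss1, a mitochondrial acetyl-CoA synthetase, by 0.44 (0.0399). Of 11 genes of coenzyme A synthesis and hydrolysis, 1 was called. It was Pank1, a pantothenate kinase of the first step of coenzyme A synthesis, which rose with exercise in CON mice by 1.12 (limma adjusted p = 4.50e-04) from 2.00 to 4.90 FPKM. Its HFD-post against HFD-pre difference was 0.56 (limma adjusted p = 0.116), and its interaction was -0.55 with an interval from -0.98 to -0.13 (limma adjusted p = 1.00).

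Of 22 genes of fatty acid oxidation tested, 12 rose with HFD in basal muscle and 5 after exercise, 2 rose with exercise in CON mice and none in HFD mice, and none fell in any comparison by limma. The dienoyl-CoA isomerase Ech1 rose with HFD by 0.87 before exercise (limma adjusted p = 0.00109) and by 0.82 after it (0.00172). The long-chain acyl-CoA dehydrogenase Acadl rose by 0.77 (limma adjusted p = 0.00109) and 0.60 (0.00883). Against these, Acot2 differed between the diets by 1.16 before and 0.18 after exercise, and Ucp3 by 0.40 and -0.19. Mlycd (malonyl-CoA decarboxylase) was among the fatty acid oxidation genes called with HFD before exercise but not after it. Whether the genes differ from one another in this respect was not tested.

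Of 20 PPAR regulators and targets tested, 1 rose with HFD in basal muscle, 3 rose with exercise in CON mice and 3 in HFD mice. This list holds none of the 12 fatty acid oxidation genes that rose with HFD in basal muscle. The paper reports that HFD raised several PPAR targets of lipid uptake and catabolism. Pdk4, the kinase that shuts down pyruvate dehydrogenase, went from 207 ± 66.5 FPKM in CON-pre to 518 ± 36.3 in CON-post (log2 difference 1.38, limma adjusted p = 0.00210). In HFD mice it was 316 ± 61.1 FPKM before and 433 ± 108 after exercise (0.44, limma adjusted p = 0.438), with an interaction of -0.94 (interval -1.57 to -0.31, adjusted p = 1.00). The HFD-post levels of Pdk4 were 502, 531, 405 and 292 FPKM, also lowest in replicate 4. Plin5, a coat protein of lipid droplets that contact mitochondria, rose with HFD in basal muscle by 1.52 (limma adjusted p = 0.00588) and with exercise in CON mice by 1.16 (0.0126).

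The receptors themselves were not called by limma in any comparison. Ppara averaged 3.33 to 4.15 FPKM and Ppard 6.64 to 8.03 FPKM per group. The coactivator Ppargc1a rose with exercise in both diets, by 1.98 in CON mice (limma adjusted p = 4.38e-05) and by 2.10 in HFD mice (2.87e-05), with an interaction of 0.12 (interval -0.44 to 0.68).

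**Figure D4:**
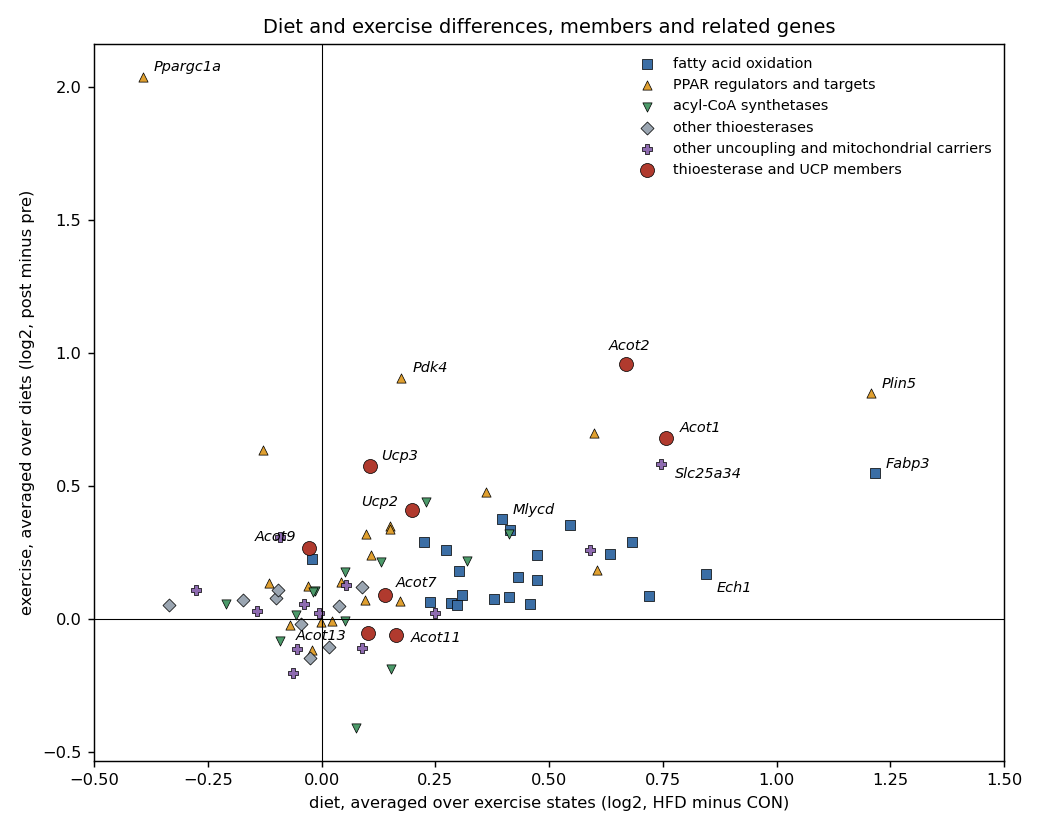
Each point is a gene, with its log2 difference for diet (HFD minus CON, averaged over exercise states) on the x axis and for exercise (post minus pre, averaged over diets) on the y axis, both of log2(FPKM + 0.5). Red circles are the 8 members and other symbols are 5 lists of related genes. Acot2 (0.67 and 0.96) and Acot1 (0.76 and 0.68) lie high on both axes, and Ucp3 (0.11 and 0.58) on the exercise axis.

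The genes whose levels ran most like those of the members over the 16 libraries were described by Pearson's r of log2(FPKM + 0.5). These are correlations over libraries that share diets and exercise states, and they carry no test. For Acot2 the 3 closest were Mlycd, malonyl-CoA decarboxylase (0.943), Slc25a34 (0.900) and Tacc2 (0.896). For Acot1 they were Slc25a34 (0.892), Angptl7 (0.887) and Slc27a1 (0.882). For Ucp3 they were Pdk4 (0.933), Cblb (0.906) and Tacc2 (0.906). Slc25a34 was thus among the 3 closest genes of both Acot1 and Acot2, and Tacc2 among those of both Acot2 and Ucp3.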

How the data were processed

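Polyadenylated RNA of 16 quadriceps samples was sequenced by the authors as stranded libraries (TruSeq, HiSeq 2500), and the submitters' processing notes name FastQC, TopHat and Cufflinks with the mm9 build. Whether counting used strand is not given in the sources used here. The deposited table holds FPKM per gene, computed by the authors per sample, with no counts. Its 24487 entries held 27 whose names had become dates (0.0771% of all FPKM, left out), the entries of 260 symbols were summed, and 23970 symbols remained. All value columns were used (0 left out). Genes averaging 0.5 FPKM or more (11256) entered a single limma fit of the 4 groups (version 3.58.1, R 4.3.3), made on log2(FPKM + 0.5) and allowing the variance to follow the mean, with Benjamini-Hochberg adjustment over all genes tested and a threshold of 0.05. The 7 comparisons were 4 pairs of groups, diet and exercise averaged over the other factor, and their interaction. For the sum, the rows of Acot1 and Acot2 were replaced by their total. The authors' own test in Cufflinks needs reads and was not used here.

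Alternatives were pseudocounts of 0.1 and 1, no filter, a minimum mean of 1 FPKM, upper-quartile and median-of-ratios scaling, no trend, only the groups compared, the replicate number as a block, and each library left out in turn. The procedure was tested on simulated data. Fragments per library were estimated from genes seen in 1 to 4 libraries with a single transcript of 1000 to 5000 bases, taking each such value as 1 fragment and the median over genes, a rough estimate that sets the counting precision of low genes. Python 3.11.15, Biopython 1.88 and matplotlib 3.10.9 were used for sequences and figures.

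Named genes were all members, the called genes of 6 related lists (up to 3 each way per list and comparison), with Pdk4, Ppara, Ppard, Ppargc1a, Cpt1b, Acsl1 and Ucp1, and the 3 genes most like each member. Members and lists were chosen with earlier results of these data known, so none is independent support. Acot8, Acot6, Acot4 and Acot10 are given as members of the same family, and the called cell type markers are named, all outside that rule. Positions are from RefSeq GRCm38.p6, since 692 of 692 loci in a supplementary table of the study overlapped the gene of the same symbol in that build and 114 in mm9. Transcript comparisons used GENCODE M1. Protein sequences were not used here.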

Additional observations from a re-analysis of the deposited data

Results flagged for a closer look

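Of 36 groups of 4 libraries examined (the 8 members and the sum in 4 groups), 1 held a library that stood apart by Dixon's criterion. Ucp2 in HFD-pre replicate 4 was at 4.54 FPKM, while the other 3 HFD-pre libraries lay at 3.50, 3.49 and 3.33 FPKM, and the gap to the nearest was 0.855 of the group's range, above the 95% critical value for 4 samples. Chance flags about 1 group in 20.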

How the results depend on the processing

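Of 63 pairs of a gene (or the sum) and a comparison, the calls of Acot2, Ucp3, the sum and the exercise call of Acot1 passed under all alternatives run, the diet call of Acot1 was lost in 2, and the members called were otherwise the same in number. The adjusted p of Acot2 for HFD-pre against CON-pre stayed between 0.00114 and 0.0342, and that of its interaction between 0.206 and 1.00. Other calls came closer to the threshold. The limma adjusted p rose to 0.0448 for Ucp3 in CON-post against CON-pre and to 0.0462 for the sum in HFD-pre against CON-pre. For Acot1 and exercise averaged over diets it rose to 0.0469. Without CON-pre replicate 1 or CON-post replicate 2, members called for diet averaged over exercise states were 1 (range 1 to 2 over the libraries left out). Reversals touched only differences near 0 that were never called. Acot1 had an interaction of -0.0616 with a pseudocount of 0.1, Acot9 a basal diet difference of 0.0219 with upper-quartile and 0.0263 with median-of-ratios scaling, and Acot13 a CON exercise difference of 0.0057 with median-of-ratios scaling.

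Leaving out 1 library at a time gave these reversing ranges. The interaction ran from -0.0898 to 0.24 for Acot1, from -0.18 to 0.12 for Acot9 and from -0.28 to 0.0339 for Ucp2. HFD-pre against CON-pre ran from -0.11 to 0.096 for Acot11 and from -0.13 to 0.13 for Acot9. HFD-post against CON-post ran from -0.0002 to 0.14 for Acot13, from -0.0612 to 0.089 for Acot7, from -0.15 to 0.11 for Acot9 and from -0.0246 to 0.25 for Ucp2. CON-post against CON-pre ran from -0.0458 to 0.034 for Acot13. HFD-post against HFD-pre ran from -0.021 to 0.24 for Acot11 and from -0.11 to 0.0417 for Acot7. Without changing sign, Ucp3 ran from -0.28 (without CON-post replicate 3) to -0.0736 (without HFD-post replicate 4) for HFD-post against CON-post, and from 0.042 to 0.17 for diet averaged over exercise states (without CON-pre replicates 1 and 4). Acot13 ran from -0.0785 to -0.0093 for exercise averaged over diets and from -0.15 to -0.015 for the interaction (without HFD-post replicates 1 and 2), and Acot7 from 0.0544 (without HFD-post replicate 1) to 0.13 (without CON-pre replicate 4) for exercise averaged over diets. The averages ran from -0.12 to 0.0114 for exercise (Acot11) and from -0.0866 to 0.0466 for diet (Acot9).

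Counts over all genes depended more on the setting. With only the groups compared, 2 genes were called in HFD-post against CON-post (17 with all groups in the fit) and 72 in CON-post against CON-pre (125), where fewer libraries estimate the spread. With no filter, 37 were called in HFD-post against HFD-pre (61). Leaving out 1 library gave 21 to 43 genes for HFD-pre against CON-pre (lowest without CON-pre replicates 1 or 2, and 23 or 24 without HFD-pre replicates 1, 3 or 4). It gave 5 to 16 for HFD-post against CON-post (5 without CON-post replicate 2, 8 without its replicate 3, and 10 or 11 without CON-post replicate 1 or HFD-post replicates 1 or 4). It gave 88 to 190 for CON-post against CON-pre (190 without CON-pre replicate 4) and 21 to 79 for HFD-post against HFD-pre (under 40 without HFD-pre replicates 1, 2 or 3 or HFD-post replicates 2, 3 or 4). Exercise averaged over diets gave 246 to 565 (246 without CON-pre replicate 1, 289 and 278 without HFD-pre replicates 1 and 2), and the interaction 0 to 1 (1 without CON-post or HFD-post replicate 4). The cause was not tested. Genes higher and lower with exercise averaged over diets were 332 and 103, and 284 and 213 with upper-quartile scaling. For HFD-post against HFD-pre they were 55 and 6, and 40 and 16 with that scaling. For CON-post against CON-pre they were 109 and 16, and 104 and 33.

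Same-numbered libraries were compared for pairing (5 of 16 same-numbered pairs correlated above 0.1, range -0.22 to 0.21, 6 best matches). Best matches between the diets were replicates 1 and 2 before exercise and replicates 1, 2 and 4 after it. Between pre and post, the only best match was replicate 3 in HFD mice. Whether the numbers mark samples handled together was not tested. With the replicate block, 32 genes were called in HFD-pre against CON-pre, 116 in CON-post against CON-pre, 42 in HFD-post against HFD-pre and 328 for exercise averaged over diets, and the members called did not change in number. FPKM hold no counts, so the depth is an estimate, and it limits Acot1 and Acot11 most.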

Other observations

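Some thioesterase genes were almost absent from these muscles. Acot3, Acot5 and Acot12 averaged at most 0.0444 FPKM in any group and were not tested. The brown adipocyte markers (4 genes) summed to at most 3.50 FPKM in any library, and the adipocyte markers (9 genes) to 326 to 668 FPKM, with ranges of 378 to 485 in CON-pre, 326 to 419 in HFD-pre, 380 to 572 in CON-post and 343 to 668 in HFD-post. Of the adipocyte markers, Adrb3 fell by 0.73 with HFD averaged over exercise states (limma adjusted p = 0.0267), and the brown adipocyte marker Cidea, the only one of its list that was tested, rose by 0.68 (0.0180). Averaged over diets, the endothelial marker Pecam1 rose with exercise by 0.36 (limma adjusted p = 0.00141). The summed slow-fibre markers (8 genes) ran from 205 to 817 FPKM over the libraries, and the sums of the groups overlapped.

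The genes that ran most like the members without a call were also listed, by Pearson's r over 16 libraries and with no test. Acot7 was closest to Notch4 (0.854), Mb, the muscle oxygen carrier myoglobin (0.851), and Fxyd6 (0.842). For Acot9 the closest were Plxnb2 (0.886), Abracl (0.865) and F2rl3 (0.864). Acot11 ran most like Ppara (0.797), 4632428C04Rik (0.789) and Lrrn1 (0.781). Acot13 ran most like Dffa (0.810), Uba3 (0.787) and Mipol1 (0.767), and Ucp2 like Strn4 (0.862), Psmd4 (0.859) and Dctn2 (0.859).

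Other genes of the related lists changed as follows. Averaged over exercise states, Fabp3, a fatty acid binding protein of muscle, rose with HFD by 1.22 (limma adjusted p = 0.00251), and Decr1, a reductase for unsaturated acyl-CoA, by 0.72 (1.60e-04). Cpt1b, which forms acylcarnitines in muscle, rose with HFD by 0.28 (limma adjusted p = 0.00965). Averaged over diets, the nuclear receptor corepressor Nrip1 rose with exercise by 0.63 (limma adjusted p = 0.00180), and Cd36, a fatty acid transporter, by 0.35 (0.0256). Mlycd, the closest gene to Acot2, rose with HFD in basal muscle by 0.55 (limma adjusted p = 0.0138) and with exercise in CON mice by 0.52 (0.00709).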
